A study of Mus musculus with 12 samples.

Results

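The 9 genes described here lie within 10 Mb of *Tnfrsf1b*, the TNFR2 gene, on mouse chromosome 4. They are *Asap3*, *Zfp46*, *Alpl*, *Tmem51*, *Gm13251*, *Rps19-ps3*, *Fbxo44*, *Masp2* and *Pik3cd*. They were picked from 574 symbols of the deposited tables that have a position in this window, and from 45563 symbols in all. All 9 had a mean over the libraries of 0.1 FPKM or more (fragments per kilobase of gene, scaled to library size), as did 208 symbols of the window and 18081 of the whole table, which were the genes tested. The genes were picked with their differences between genotypes known. Those differences are therefore given as a description, with no weight as evidence. The question is whether the difference between genotypes was equal with and without cytokines.

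Primary oligodendrocyte precursor cells (OPCs), the dividing cells that give rise to myelin-forming oligodendrocytes, were taken from cortices of mouse pups aged 2 to 5 days (by the labels, while the methods give a later first day) with beads against PDGFRα and grown with PDGF-AA and FGF2. They came from wild-type (WT) C57BL/6J mice or from germline TNFR2-/- mice, which lack the receptor in every cell, and the labels give the strain C57BL/6 for both. After 3 days in culture the cells received PBS vehicle (NS, non-stimulated) or TNF, IFNγ and IL1β at 25 ng/mL each for 3 h (St, stimulated). Each combination of genotype and condition had 3 libraries, and its name joins the labels (WT NS, for example). The replicate numbers are 2, 3 and 4 for WT and 2, 4 and 5 for TNFR2-/-, and values below are given in that order. Neither the number of pups behind a library nor their sex was used here.

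A gene next to a targeted locus is inherited together with it. Mice made from embryonic stem cells of one strain and crossed to another can keep a stretch of the stem cell strain around the target, and the differences between strains in that stretch are then present in knockout but not in wild-type animals. Such a difference comes with the chromosome and can be present without treatment of the cells. Inflammatory cytokines act on genes through NF-κB, STAT and IRF transcription factors that bind promoters and enhancers. A promoter or enhancer can itself lie in such a stretch, so that a strain difference may also depend on the treatment. Whether a difference is equal with and without cytokines therefore cannot tell flanking sequence apart from other causes. DNA sequence of the animals was not analysed here, and whether flanking strain sequence had a part in any value below was not tested.

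Libraries held between 26886878 and 30335265 read pairs, recovered from the FPKM values. *Tnfrsf1b* itself (chromosome 4, 145213463 to 145246870 of GRCm38, minus strand) had 15, 12 and 24 read pairs in WT NS and 322, 346 and 213 in the libraries labelled TNFR2-/- NS. It had 145, 61 and 105 in WT St and 282, 356 and 290 in those labelled TNFR2-/- St. The gene named as removed was therefore higher in the libraries labelled TNFR2-/- in both conditions, and every direction given below rests on the labels. The counts cover the whole gene and do not show which exons the reads came from. The 7 OPC markers summed to between 7910 and 9220 RPM (reads scaled to library size) in WT NS, 8210 and 8890 in TNFR2-/- NS, 6500 and 7450 in WT St and 7090 and 7730 in TNFR2-/- St, lower in St in both genotypes without overlap, and none was at 0. The 10 microglia markers summed to between 0.707 and 1.92 RPM, with *Itgam* and *Ptprc* at 0 in WT NS and *C1qa* at 0 in WT St. The 7 astrocyte markers summed to between 1600 and 1950 in the WT libraries and between 2420 and 3840 in those labelled TNFR2-/-, without overlap. The 8 markers of mural cells and fibroblasts ranged from 255 to 873 in WT NS, 108 to 542 in TNFR2-/- NS, 324 to 791 in WT St and 75.8 to 468 in TNFR2-/- St. The sum of the 7 neuron markers was higher in St without overlap. It was 120 to 149 in WT NS, 108 to 137 in TNFR2-/- NS, 465 to 479 in WT St and 479 to 553 in TNFR2-/- St. The single markers did not all rise. Of the 6 neuron markers tested, 1 was called higher and 1 lower in St in each genotype (limits given below). The part of these markers in the differences below, the cytokine responses included, was not tested. In RNA from whole cultures, fewer cells of a type and less RNA per cell cannot be told apart.

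In NS, 5 of the 9 genes were called (limma on log2(FPKM + 0.5), adjusted p of at most 0.05, a change of 1.5-fold or more, and 1 FPKM or more on average), all higher in TNFR2-/-, against 2.9% of all genes tested in either direction and 1.62% higher. In St, 8 of the 9 were called, 7 higher and 1 lower, against 1.8% of all genes, or 1.18% higher and 0.614% lower. Leaving out 1 library at a time left 4 to 6 genes called in NS and 3 to 8 in St. The 3 in St (*Gm13251*, *Masp2* and *Pik3cd*) came without WT St replicate 3 or 4, 4 without TNFR2-/- St replicate 2 and 5 without WT St replicate 2 or TNFR2-/- St replicate 5. Nothing is read from these shares, since the genes were picked on these comparisons. Their median difference on the log2 scale was 0.76 in NS and 0.72 in St, beside 0.04 and 0.00 over all genes tested. The libraries of the 2 genotypes did not overlap for 8 of the 9 genes in NS and for 9 of 9 in St, beside 34.2% and 32.7% of all genes. For *Alpl*, *Gm13251*, *Rps19-ps3* and *Masp2*, all 6 TNFR2-/- libraries lay above all 6 WT libraries, and 6.59% of all genes separated in this way in either direction.

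**Figure D1:**
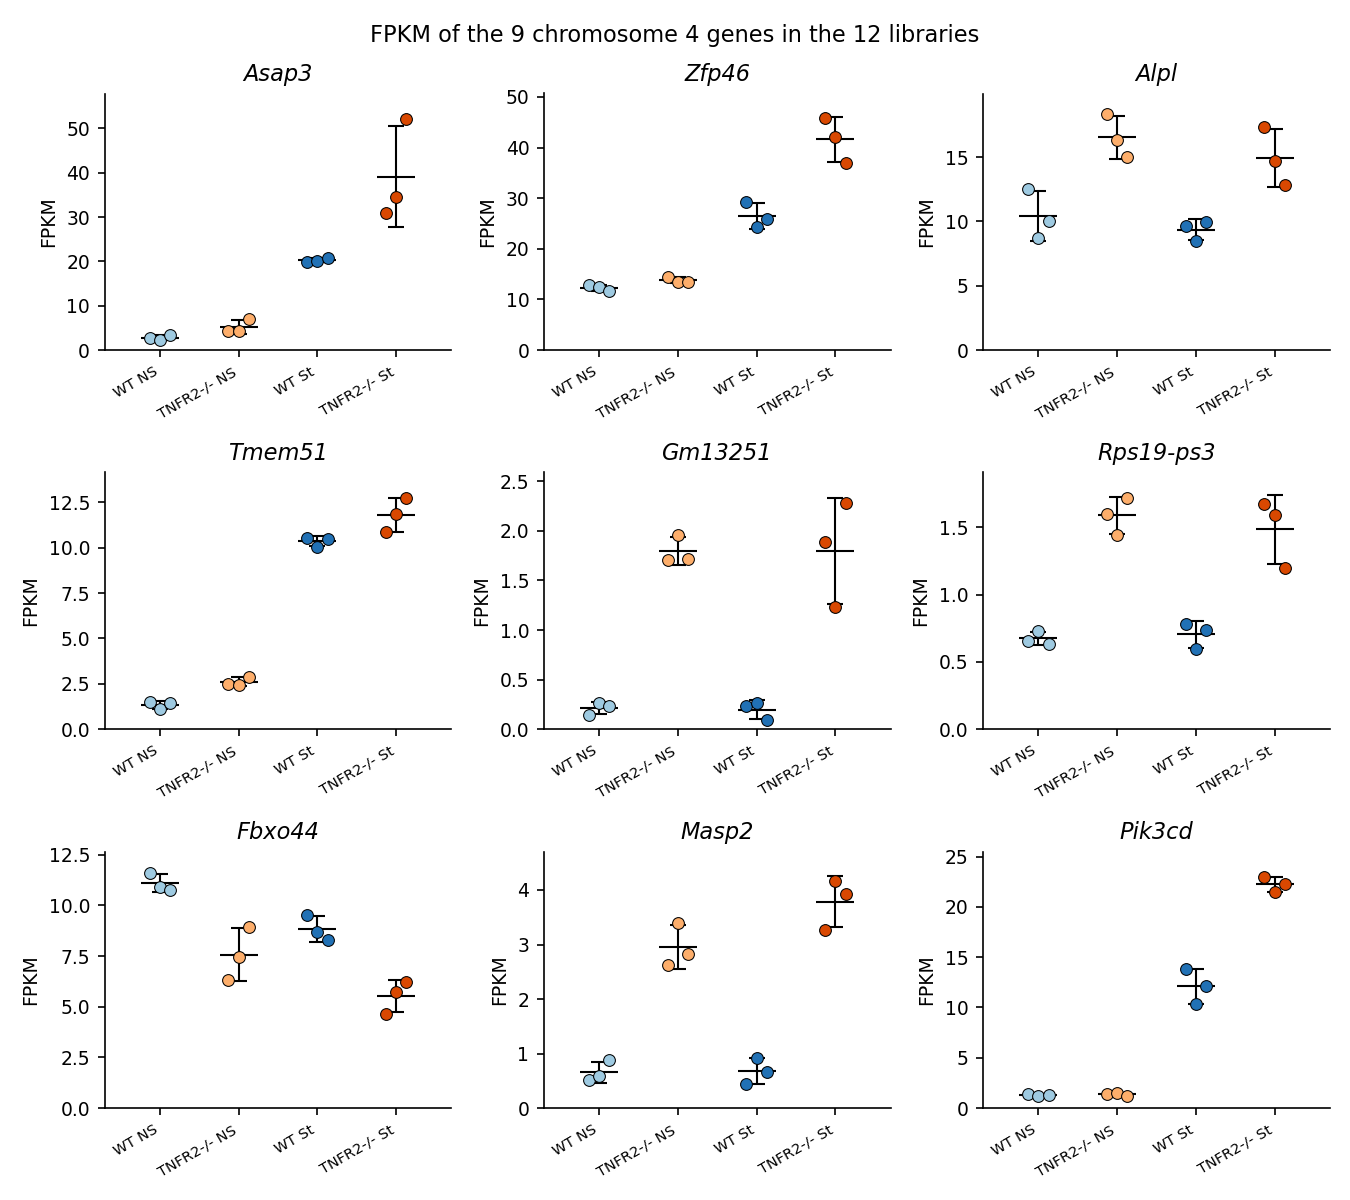
FPKM (linear axis from 0) of the 9 genes in the 4 groups, with each point 1 library, and the line and bars the mean ± SD (n = 3). *Masp2*, *Gm13251*, *Rps19-ps3* and *Alpl* step up with the TNFR2-/- label in both conditions, *Fbxo44* steps down, and *Asap3*, *Zfp46*, *Tmem51* and *Pik3cd* rise with cytokines in both genotypes.

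*Masp2* encodes the serine protease that cleaves C4 and C2 to start the lectin pathway of complement, and it lies at 3.36 Mb from *Tnfrsf1b* (148602554 to 148615499, plus strand). It had 0.520, 0.581 and 0.877 FPKM in WT NS and 2.62, 3.40 and 2.83 FPKM in TNFR2-/- NS. It had 0.449, 0.923 and 0.661 FPKM in WT St and 3.26, 4.16 and 3.93 FPKM in TNFR2-/- St. The WT libraries were alike with and without cytokines, and every TNFR2-/- library was above every WT library. The means differed 4.48-fold in NS and 5.59-fold in St, or by 1.58 ± 0.17 and 1.88 ± 0.17 on the log2 scale (± SE). These values came from 19 to 39 read pairs in a WT library and 111 to 177 in a TNFR2-/- library. The 3' part of *Masp2* overlaps *Tardbp* on the opposite strand over 3118 bases, and *Tardbp* had 6498 to 9459 read pairs a library. Strand of the counting is not given in the sources used here, so that reads from the overlap cannot be told apart. *Tardbp* was lower in TNFR2-/- by 0.19 ± 0.06 in NS and by 0.32 ± 0.06 in St, the direction opposite to that of *Masp2*.

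*Gm13251*, named *Zfp992* in the annotation of GRCm38 used here, encodes a zinc finger protein of the kind that binds DNA, in a cluster of such genes on distal chromosome 4. It lies at 1.202 Mb (146449023 to 146470292, plus strand). It had 5, 8 and 8 read pairs in WT NS and 58, 67 and 59 in TNFR2-/- NS. It had 8, 9 and 3 in WT St and 64, 42 and 74 in TNFR2-/- St. This was the sharpest step among the 9 genes by ratio of means, 8.32-fold in NS and 9.17-fold in St, at 1.68 ± 0.17 and 1.71 ± 0.17 on the log2 scale. These log2 values depend on the pseudocount and the fit, and over the alternatives lay between 1.201 and 3.012 in NS and between 1.21 and 3.18 in St. Its mean over the 12 libraries, 1.001 FPKM, was barely above the 1 FPKM needed for a call.

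*Gm13251* has near-identical copies. Of its 4451 stretches of 100 bases, the read length, 1273 (28.6%) occur in a transcript of another gene, of which 1105 in *Zfp991*, listed as *Gm13139* in the tables, 1045 in *Znf41-ps* and 358 in *Zfp993*. The coding sequences of *Gm13251* and *Zfp991* are each 1719 bases long and differ at 8 bases (99.5% identical). The stretch of 90 coding bases with most differences is shown because it gives an idea of how alike the copies are, with the bases that differ in capitals (transcript sequences of GENCODE M21, bases 1062 to 1151 of both coding sequences):
*Gm13251*: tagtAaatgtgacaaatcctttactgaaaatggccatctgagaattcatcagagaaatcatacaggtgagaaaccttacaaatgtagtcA
*Zfp991*: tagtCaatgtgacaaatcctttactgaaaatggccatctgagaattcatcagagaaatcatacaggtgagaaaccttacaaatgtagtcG

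The copy moved the other way. *Gm13139* had 50, 46 and 50 read pairs in WT NS and 12, 16 and 26 in TNFR2-/- NS, and 41, 44 and 49 in WT St and 19, 11 and 18 in TNFR2-/- St. It was lower in TNFR2-/- by 0.65 ± 0.11 in NS and by 0.59 ± 0.11 in St on the log2 scale, and it was named here after its values were seen. Added up, the pair had 55, 54 and 58 read pairs in WT NS and 70, 83 and 85 in TNFR2-/- NS. In St it had 49, 53 and 52 in WT and 83, 53 and 92 in TNFR2-/-. The sum was thus separate between genotypes in NS, while in St 1 TNFR2-/- library fell at the WT level. The share of the pair assigned to *Gm13251* was 5.77% to 17.0% in the 6 WT libraries and 69.4% to 82.9% in the 6 TNFR2-/- libraries. *Znf41-ps*, the third gene with shared stretches and a pseudogene, had 18 to 30 read pairs in a WT library and 9 to 23 in a TNFR2-/- library. How the counting assigned reads that fit several copies is not given in the sources used here, and the value of *Gm13251* alone is uncertain for that reason.

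**Figure D2:**
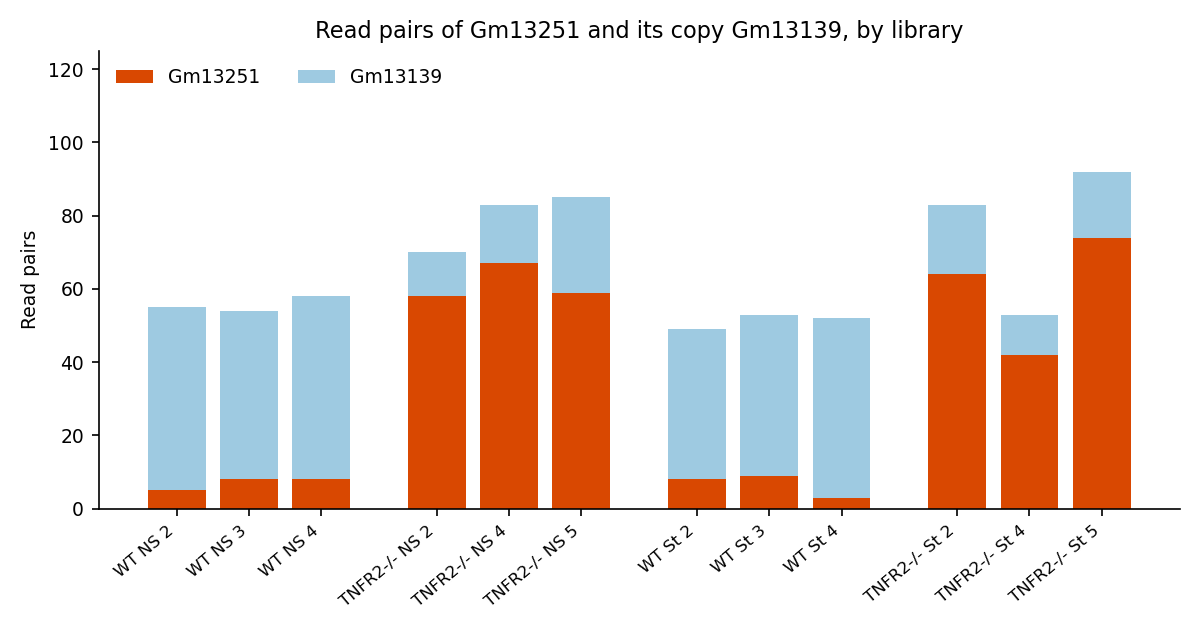
Read pairs of *Gm13251* and of its near-identical copy *Gm13139* in the 12 libraries, stacked so that the height of a bar is the sum of the pair (linear axis from 0). The WT bars reach 49 to 58 and are mostly *Gm13139*, and the TNFR2-/- bars reach 53 to 92 and are mostly *Gm13251*.

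*Rps19-ps3* is a processed pseudogene, a copy of the messenger RNA of ribosomal protein S19 that was written back into the genome and carries no introns. It lies at 2.58 Mb (147821777 to 147822202, minus strand). It had 31, 31 and 30 read pairs in WT NS and 76, 69 and 82 in TNFR2-/- NS. It had 37, 28 and 35 in WT St and 79, 76 and 54 in TNFR2-/- St. All TNFR2-/- libraries were above all WT libraries, by 2.36-fold in NS (0.83 ± 0.12 on the log2 scale) and 2.11-fold in St (0.72 ± 0.12).

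The parent gene *Rps19*, on chromosome 7, had 6042 to 9499 read pairs a library, and its difference was -0.08 ± 0.12 in NS and -0.35 ± 0.12 in St, neither called. The pseudogene is 93.9% identical to the *Rps19* coding sequence over 423 aligned bases, and 26 of its 327 stretches of 100 bases (7.95%) occur in *Rps19* and in a second pseudogene, *Rps19-ps6*. *Rps19-ps6* had 49 to 80 read pairs in TNFR2-/- NS and 56 to 70 in WT NS, with overlap. In St it had 47 to 61 in TNFR2-/- and 67 to 89 in WT, without overlap and opposite in direction to *Rps19-ps3*, at -0.42 ± 0.19 on the log2 scale, which was not called. Reads from the parent that fell on the pseudogene cannot be told apart from its own within those stretches. The 90 bases that differ most from the parent, apart from the ends, are shown to give the kind of difference between the pair, with the bases that differ in capitals (GENCODE M21, bases 128 to 217 of the pseudogene and 140 to 229 of the coding sequence):
*Rps19-ps3*: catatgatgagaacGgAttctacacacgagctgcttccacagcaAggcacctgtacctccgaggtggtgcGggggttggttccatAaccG
*Rps19*: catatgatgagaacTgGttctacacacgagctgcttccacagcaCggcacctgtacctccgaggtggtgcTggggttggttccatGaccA

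*Alpl* encodes tissue-nonspecific alkaline phosphatase, which removes phosphate from pyrophosphate and pyridoxal phosphate outside the cell. It lies at -7.42 Mb (137741733 to 137796384, minus strand), on the other side of *Tnfrsf1b* from the genes above. It had 12.5, 8.73 and 10.1 FPKM in WT NS and 18.3, 16.3 and 15.004 FPKM in TNFR2-/- NS. It had 9.67, 8.47 and 9.98 FPKM in WT St and 17.3, 14.7 and 12.8 FPKM in TNFR2-/- St. The lowest TNFR2-/- library, at 12.8 FPKM, stood just above the highest WT library, at 12.5 FPKM. The means differed 1.59-fold in both conditions, at 0.65 ± 0.15 in NS and 0.64 ± 0.15 in St on the log2 scale.

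*Fbxo44* encodes an F-box protein, the part of an SCF ubiquitin ligase that recognises the substrate, and it was the only one of the 9 with lower values in TNFR2-/-. It lies at 2.91 Mb (148152800 to 148160482, minus strand). It had 11.6, 10.9 and 10.8 FPKM in WT NS and 6.34, 7.44 and 8.94 FPKM in TNFR2-/- NS. It had 9.53, 8.67 and 8.30 FPKM in WT St and 4.66, 5.71 and 6.23 FPKM in TNFR2-/- St. The genotypes did not overlap within a condition, and the WT means were 1.47-fold higher in NS and 1.60-fold higher in St. The differences were -0.53 ± 0.13 and -0.64 ± 0.13 on the log2 scale. The first missed the 1.5-fold threshold, and the second was called. Its neighbours *Fbxo6*, at 2.90 Mb, and *Fbxo2*, at 2.91 Mb, belong to the same sugar-binding branch of the family. *Fbxo6* differed by 0.58 ± 0.13 in NS and 0.43 ± 0.13 in St, and *Fbxo2* by 0.68 ± 0.38 and 0.56 ± 0.38, none of them called. *Fbxo2* had 2027 read pairs in TNFR2-/- NS replicate 5 and 545 to 827 in the other 5 NS libraries, so that its value rested on 1 culture.

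The remaining 4 genes rose with cytokines. *Pik3cd* encodes p110δ, a catalytic subunit of class I phosphoinositide 3-kinase best known from leukocytes, and lies at 4.40 Mb (149649168 to 149702571, minus strand). It had 1.44, 1.17 and 1.27 FPKM in WT NS and 1.44, 1.47 and 1.21 FPKM in TNFR2-/- NS, with overlap. It had 13.8, 10.3 and 12.2 FPKM in WT St and 23.0, 21.5 and 22.2 FPKM in TNFR2-/- St. The genotypes were thus level before stimulation, at a difference of 0.06 ± 0.11 on the log2 scale, and 1.84-fold apart after it, at 0.86 ± 0.11. The NS values came from low counts, 24 to 33 read pairs in a WT library and 28 to 34 in a TNFR2-/- library.

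*Zfp46* encodes another zinc finger protein and lies at -8.92 Mb (136284683 to 136293942, plus strand). It had 12.8, 12.5 and 11.6 FPKM in WT NS and 14.5, 13.5 and 13.5 FPKM in TNFR2-/- NS. It had 29.2, 24.2 and 25.97 FPKM in WT St and 45.8, 42.2 and 36.9 FPKM in TNFR2-/- St. The difference was 0.16 ± 0.09 in NS and 0.64 ± 0.09 in St, the second of which was called. *Tmem51*, a transmembrane protein, lies at -3.13 Mb (142030992 to 142084304, minus strand) and had the opposite pattern. It had 1.48, 1.08 and 1.45 FPKM in WT NS and 2.51, 2.43 and 2.89 FPKM in TNFR2-/- NS. It had 10.5, 10.04 and 10.5 FPKM in WT St and 10.9, 11.9 and 12.7 FPKM in TNFR2-/- St. Its genotypes were 1.95-fold apart in NS (0.77 ± 0.11) and 1.14-fold apart in St (0.18 ± 0.11), the libraries just failing to overlap in the latter. Of the genes that overlap *Tmem51*, the antisense *Tmem51os1* had 1 to 11 read pairs a library and *Gm13053* had 0 or 1, beside 65 to 817 for *Tmem51*.

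*Asap3* encodes a GTPase-activating protein for ARF proteins, which govern membrane traffic and the actin cytoskeleton. It lies at -8.97 Mb (136206365 to 136245216, plus strand), with 1 tested gene, *Tcea3*, between it and *Zfp46*. It had 2.69, 2.33 and 3.40 FPKM in WT NS and 4.27, 4.27 and 7.04 FPKM in TNFR2-/- NS. It had 19.8, 20.2 and 20.7 FPKM in WT St and 30.8, 34.5 and 52.1 FPKM in TNFR2-/- St. The TNFR2-/- replicate 5 stood above replicates 2 and 4 in both conditions. The genotypes were 1.85-fold apart in NS (0.76 ± 0.22, adjusted p = 0.0518, not called) and 1.93-fold apart in St (0.90 ± 0.22, adjusted p = 0.0456, limma with Benjamini-Hochberg adjustment). The call in St stayed without TNFR2-/- NS replicate 4 or 5 and was lost without any 1 of the other 10 libraries.

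The response to cytokines was not itself used to choose the genes, but it is not independent of the choice. It shares its libraries with the comparisons on which they were picked. A gene picked for high values in TNFR2-/- St will tend to have a larger response in TNFR2-/-. In WT cells 4 of the 9 genes were called, all higher in St, against 7.53% of all genes tested and 4.58% called higher. In TNFR2-/- cells the same 4 were called, against 10.1% of all genes and 5.41% called higher. *Pik3cd* rose 9.36-fold in WT (log2 difference 2.81 ± 0.11, adjusted p = 5.58e-08 by limma) and 16.2-fold in TNFR2-/- (3.60 ± 0.11, adjusted p = 1.09e-08 by limma). *Tmem51* rose 7.75-fold in WT (2.57 ± 0.11) and 4.53-fold in TNFR2-/- (1.99 ± 0.11). *Asap3* rose 7.21-fold (2.66 ± 0.22) and 7.53-fold (2.80 ± 0.22). *Zfp46* rose 2.15-fold (1.07 ± 0.09) and 3.01-fold (1.55 ± 0.09). The other 5 genes were not called in either genotype. Their log2 differences from NS to St lay between -0.31 and 0.03 in WT, and between -0.42 and 0.31 in TNFR2-/-. *Fbxo44* had the lowest of these in both genotypes, with an adjusted p of 0.039 in TNFR2-/- by limma and a fold short of the threshold.

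Whether the genotype difference was equal in both conditions is the interaction of genotype and stimulation, the St difference minus the NS difference. It is built from the same comparisons on which the genes were picked, and a gene picked for a large difference in one condition will tend to have a smaller one in the other. None of the 9 genes passed the threshold for it by limma, and 1 of all genes tested did, *Gbp2b* (0.00553%), or none by voom on the recovered reads. With no adjustment, 3 of the 9 had p under 0.05, as did 7.95% of all genes tested.

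**Figure D3:**
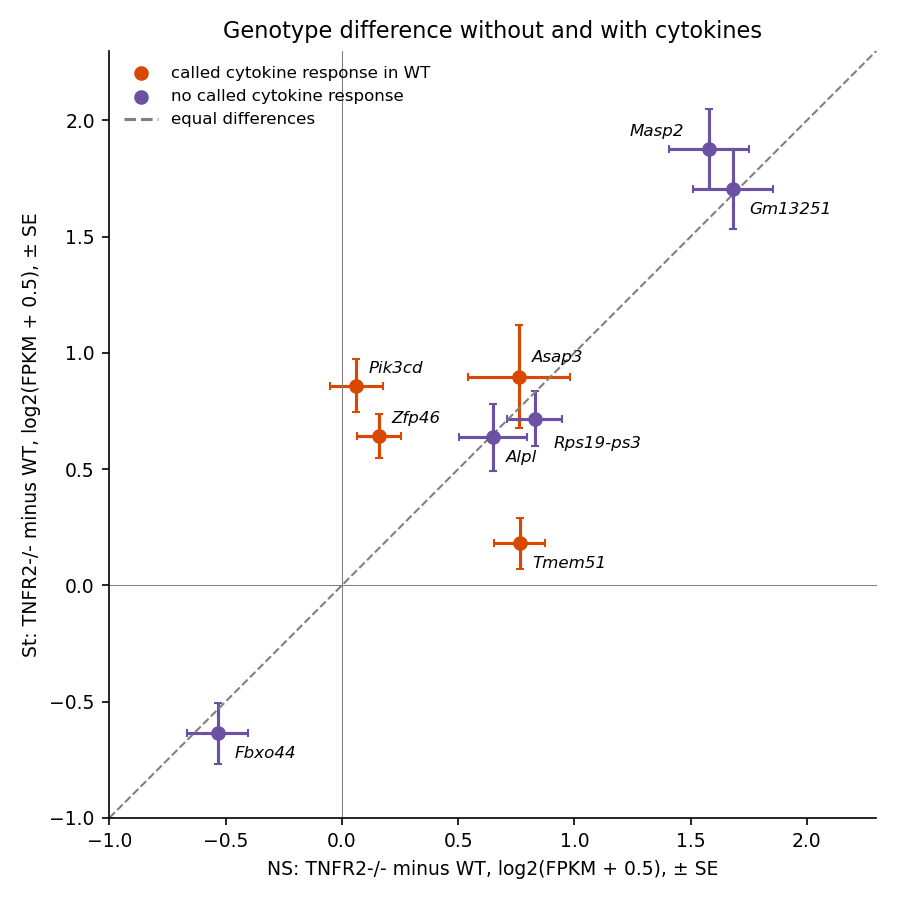
Difference between genotypes of the 9 genes without cytokines (horizontal axis) and with cytokines (vertical axis), TNFR2-/- minus WT on the log2(FPKM + 0.5) scale, with bars of ± SE from limma. *Masp2*, *Gm13251*, *Alpl*, *Rps19-ps3*, *Fbxo44* and *Asap3* lie near the dashed line of equal differences, *Pik3cd* and *Zfp46* lie above it and *Tmem51* below it.

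For 6 genes the interval of the interaction included 0. It was -0.01 for *Alpl* (95% interval -0.47 to 0.44), 0.02 for *Gm13251* (-0.52 to 0.56), -0.11 for *Rps19-ps3* (-0.48 to 0.26) and -0.10 for *Fbxo44* (-0.51 to 0.31). It was 0.14 for *Asap3* (-0.56 to 0.83) and 0.30 for *Masp2* (-0.25 to 0.84). The intervals of *Alpl*, *Fbxo44*, *Rps19-ps3* and *Asap3* are wide beside genotype differences whose size was 0.53 to 0.90, so that equality was not shown. For *Gm13251* and *Masp2* the whole interval was smaller than the genotype difference, which was 1.58 or more in each condition.

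For 3 genes the interval excluded 0. *Pik3cd* had an interaction of 0.80 (0.44 to 1.15), *Zfp46* of 0.48 (0.19 to 0.78) and *Tmem51* of -0.58 (-0.93 to -0.24). Their adjusted p was 0.493, 0.496 and 0.496 by limma over all genes tested. With the culture as a block the adjusted p was 0.0968 for each of the 3, still past no threshold.

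Responses were also taken culture by culture, each NS library being set against the St library of the same genotype and number. The response of *Pik3cd* on the log2 scale was 2.88, 2.70 and 2.84 in the WT cultures and 3.60, 3.48 and 3.73 in the TNFR2-/- cultures. That of *Zfp46* was 1.16, 0.93 and 1.13 in WT and 1.63, 1.61 and 1.42 in TNFR2-/-. That of *Tmem51* was 2.48, 2.74 and 2.50 in WT and 1.92, 2.08 and 1.97 in TNFR2-/-. For these 3 of the 9 genes the cultures did not overlap between genotypes, a share near the 28.1% of all genes tested. The 3 were also called between genotypes in NS or St alone, and the genes were picked on those comparisons. Nothing is therefore read from the separation. For *Asap3* the cultures ranged from 2.44 to 2.87 in WT and from 2.71 to 2.88 in TNFR2-/-, with overlap. An exact permutation test (two-sided) gave 0.1 for *Pik3cd*, *Zfp46* and *Tmem51*, the smallest p that 3 cultures against 3 allow, and 0.2 to 1.0 for the other 6.

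**Figure D4:**
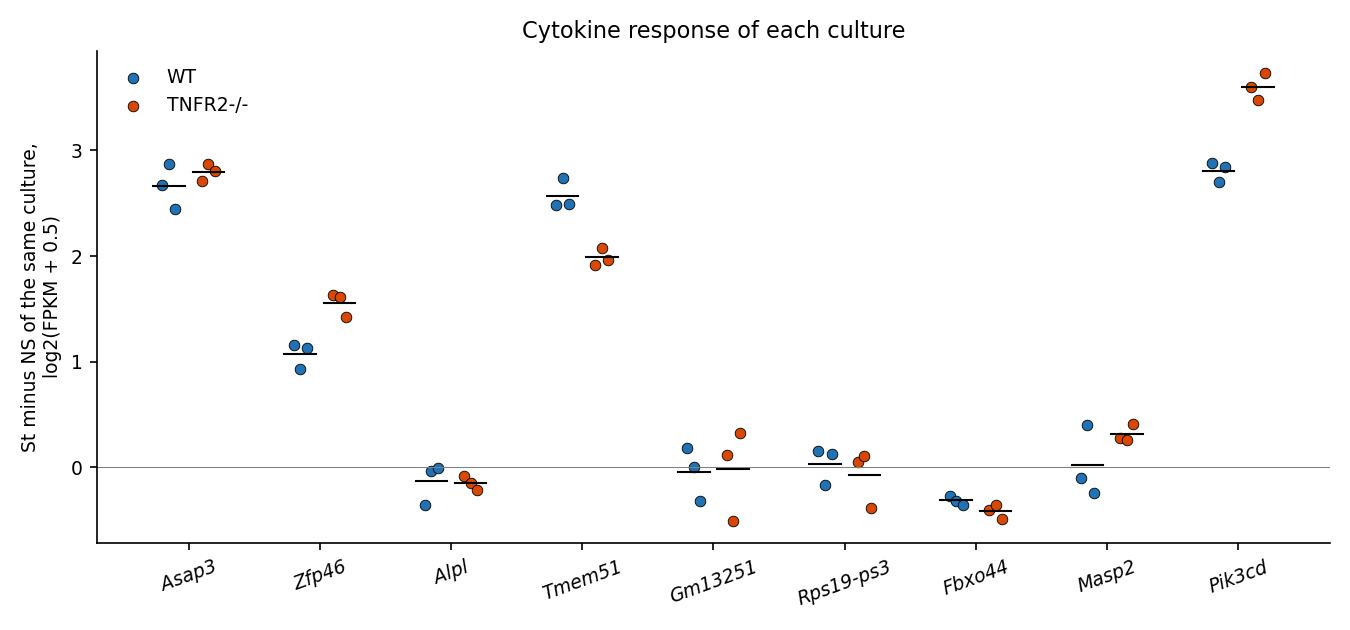
Response to cytokines of each culture, St minus NS on the log2(FPKM + 0.5) scale, for the 9 genes, with points for the 3 cultures of each genotype and lines for their means. The genotypes separate for *Zfp46*, *Tmem51* and *Pik3cd*, as they do for 28.1% of all genes tested. *Alpl*, *Gm13251*, *Rps19-ps3*, *Fbxo44* and *Masp2* stay between -0.51 and 0.41.

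*Tnfrsf1b* itself rose with cytokines in WT by 1.17 ± 0.21 on the log2 scale (adjusted p = 0.00351 by limma) and differed by 0.11 ± 0.21 in TNFR2-/-. Its genotype difference was 2.35 ± 0.21 in NS and 1.28 ± 0.21 in St, both called, with an interaction of -1.06 (adjusted p = 0.496 by limma).

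The 9 genes were not evenly placed. None of the 7 tested genes within 1 Mb of *Tnfrsf1b* was among them or was called in either genotype comparison. Of the 7, only *Vps13d* (15.81 FPKM) and *Gm13127* (4.137 FPKM) averaged 1 FPKM or more. The others were too low to be called whatever their difference, so the absence of calls does not show that genotypes were alike there. *Vps13d*, the nearest protein-coding gene of that level on the lower side, at -0.02 Mb, differed by -0.07 ± 0.10 in NS and 0.11 ± 0.10 in St. *Dhrs3*, a retinal reductase at -0.29 Mb with a mean of 0.2603 FPKM, was too low for a call, although its 6 TNFR2-/- libraries did not overlap the 6 WT libraries (0.61 in NS and 0.37 in St, chosen after its values were seen). *Gm13251* was the nearest protein-coding gene on the upper side that averaged 1 FPKM or more, and the only one of the 9 among the 6 tested genes between 1 and 2 Mb. Between 2 and 5 Mb lay 5 of the 9, among 84 tested genes, of which 4 (4.76%) were called in NS and 5 (5.95%) in St. Between 5 and 10 Mb lay the other 3, all on the lower side, among 110 tested genes, of which 2 (1.82%) were called in NS and 3 (2.73%) in St. On the rest of chromosome 4, 2.27% of 794 tested genes were called in NS and 1.01% in St, and on the other chromosomes 2.96% and 1.81% of 16545. Leaving out *Tnfrsf1b* alone, 3.38% of 207 tested genes of the window were called in NS and 4.35% in St. Leaving out the 9 genes as well, 2 of 198 were called in NS (1.01%), one of them *Id3*, and 1 in St (0.505%). The 9 were picked on these comparisons, so that leaving them out lowers the share by construction, and nothing is read from it. At the edges of the window, *Clic4*, at -9.94 Mb, differed by 0.06 ± 0.11 in NS and 0.36 ± 0.11 in St, and *Ski*, at 9.91 Mb, by 0.06 ± 0.06 and 0.16 ± 0.06. Just outside it, *Syf2*, at -10.28 Mb, differed by -0.01 ± 0.05 and -0.12 ± 0.05, and *2610002J02Rik*, at 10.003 Mb, by 0.21 ± 0.08 and -0.01 ± 0.08.

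**Figure D5:**
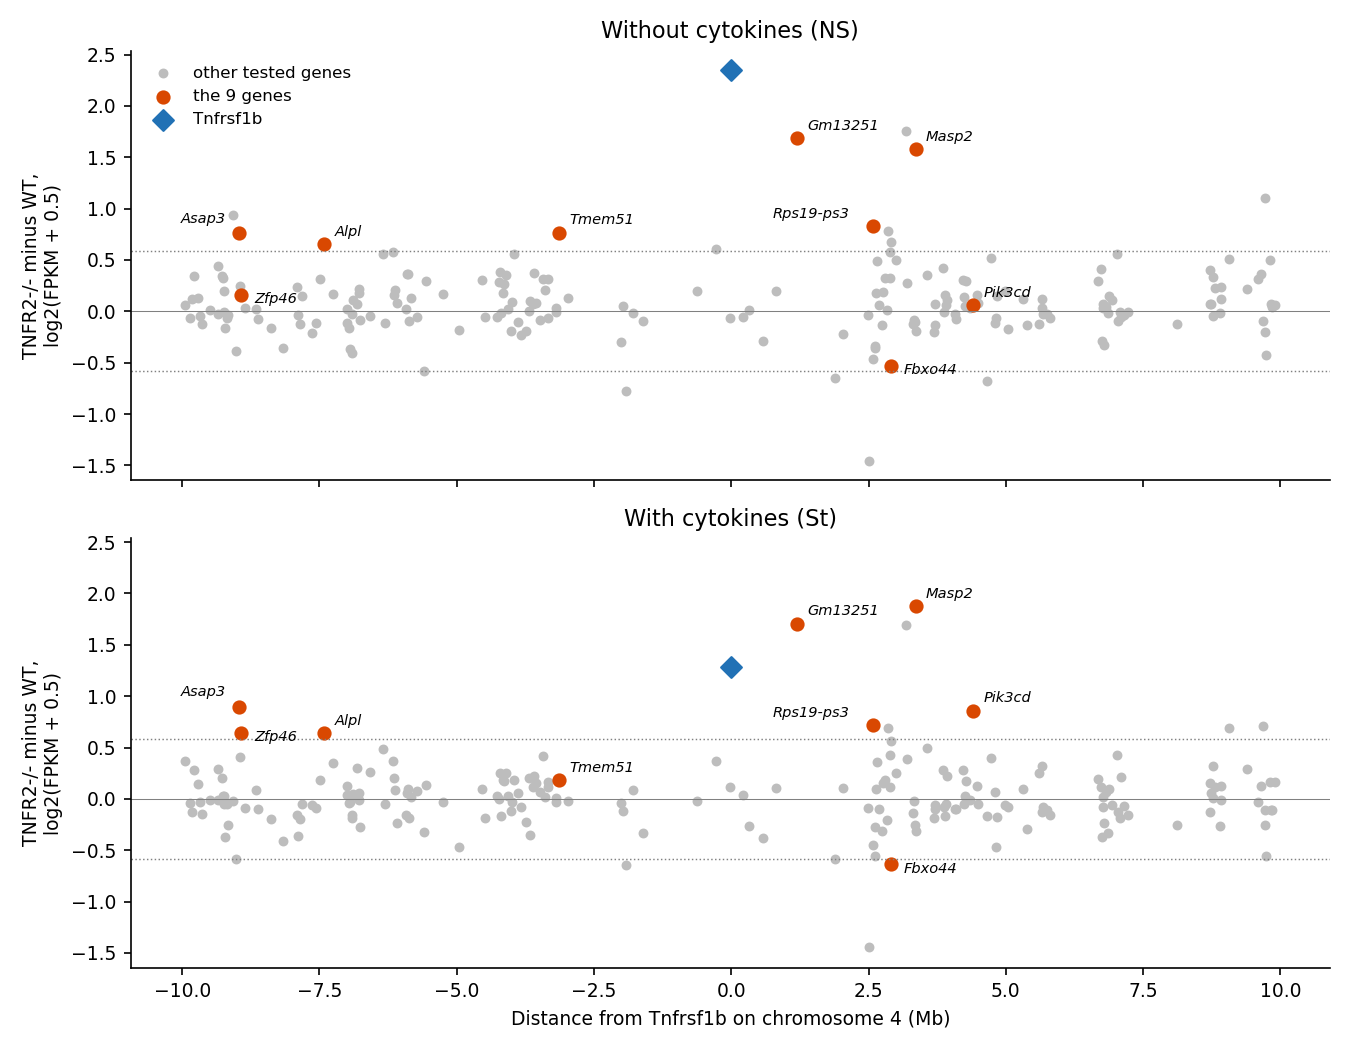
Difference between genotypes (TNFR2-/- minus WT, log2(FPKM + 0.5)) of the 208 tested genes by distance from *Tnfrsf1b*, without cytokines (top) and with cytokines (bottom). Dotted lines mark the 1.5-fold threshold, the 9 genes are named, and most other genes lie between the lines at all distances.

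Over the window without *Tnfrsf1b*, the 6 WT and 6 TNFR2-/- libraries did not overlap for 19 of 207 tested genes (9.18%), beside 6.59% of all genes tested, and 4 of the 19 are among the 9. Of the other 15, 14 were not called in either condition, 6 with a mean under 1 FPKM and 8 with a higher mean, which missed on fold or adjusted p. One of the 6, *Gm13157*, at 2.51 Mb in the same zinc finger cluster, had 110, 146 and 158 read pairs in WT NS and 0, 1 and 3 in TNFR2-/- NS. It had 146, 128 and 138 in WT St and 0 in all 3 TNFR2-/- St libraries, which allows up to 3 read pairs in a library by counting error alone. It was all but missing from the libraries labelled TNFR2-/-, alike in both conditions, and it failed the call because its mean was 0.4426 FPKM. It was chosen after its values were seen.

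Genes that work with the 9 were taken from lists of family and pathway members. Of the lectin pathway, 7 of 12 genes were tested. *C4b*, *C2* and *Serping1*, which encode the substrates of MASP-2 and the inhibitor of its class of proteases, were called higher in St in both genotypes, while *Masp2* was not. *C4b* rose 3.12-fold in WT and 2.18-fold in TNFR2-/-, *C2* 2.49-fold and 2.07-fold, and *Serping1* 34.1-fold and 36.3-fold. The NS counts behind the last 2 genes were low, so that their folds are uncertain. *C2* had 11 to 14 read pairs in WT NS and 20 to 23 in TNFR2-/- NS, and *Serping1* 4 to 16 and 11 to 20. Between genotypes only *Masp2* was called in St, and *Masp2* and *C4b* in NS. *C4b* differed by 1.25 ± 0.30 in NS and 0.70 ± 0.30 in St.

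Of 9 class I phosphoinositide 3-kinase subunits, 7 were tested. *Pik3r5*, a regulatory subunit of p110γ, was called higher in TNFR2-/- in both conditions, by 0.96 ± 0.26 and 1.59 ± 0.26, and rose with cytokines by 3.94 ± 0.26 in WT and 4.57 ± 0.26 in TNFR2-/-. The NS counts of *Pik3r5* were low, at 3 to 11 read pairs in WT and 18 to 31 in TNFR2-/-, so that these differences are uncertain. In TNFR2-/- St, replicate 5 had 48.0 FPKM, and replicates 2 and 4 had 23.3 and 28.5. *Pik3cb*, another catalytic subunit, was called lower in TNFR2-/- in both, at -0.64 ± 0.14 and -0.68 ± 0.14, and was also called lower in St than in NS in TNFR2-/- cells. *Pik3ca*, *Pik3r1*, *Pik3r2* and *Pik3r3* were not called in any comparison, and *Pik3cg* and *Pik3r6* were too low to test. *Pik3cd* was thus 1 of 3 subunits called in St, 2 higher and 1 lower.

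All 9 of the ASAP and ARF genes were tested. *Asap3* was the only one called in a genotype comparison. *Asap1* and *Asap2* were called higher in St in TNFR2-/- cells, 1.51-fold and 1.59-fold, and were not called in WT, at 1.31-fold and 1.18-fold. None of the 6 ARF genes was called in any comparison. Of 8 F-box and SCF core genes, *Fbxo17* and *Fbxo27* were called higher in TNFR2-/- NS, by 0.88 ± 0.23 and 1.15 ± 0.31, and *Fbxo17* fell with cytokines in TNFR2-/-, by 0.76 ± 0.23. These counts were low, with 21 to 50 read pairs a library for *Fbxo17* and 3 to 27 for *Fbxo27*. *Skp1a*, *Cul1* and *Rbx1*, the core of the ligase, were not called. Of 9 genes for alkaline phosphatases and phosphate handling, 6 were tested, and *Alpl* was the only one called between genotypes. *Enpp1*, which makes the pyrophosphate that ALPL removes, fell 1.59-fold with cytokines in WT, and in TNFR2-/- it was 1.54-fold lower, just short of the fold needed for a call (-0.58 ± 0.18, adjusted p = 0.0344 by limma). Of 7 TNF receptor genes on distal chromosome 4, 6 were tested and *Tnfrsf1b* was the only one called.

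The gene with the profile most like that of each of the 9, by Pearson correlation of log2(FPKM + 0.5) over the 12 libraries among 13553 genes, was *Tgm2* for *Pik3cd* (0.998), *Vwa5a* for *Asap3* (0.994), *Parp3* for *Tmem51* (0.994) and *Ifi44* for *Zfp46* (0.986). It was *Clpb* for *Alpl* (0.987), *Rpl34-ps1* for *Gm13251* (0.978), *Hadhb* for *Rps19-ps3* (0.975), *Gm5900* for *Masp2* (0.965) and *Wnk3* for *Fbxo44* (0.958). None of these lies on chromosome 4. Among the 20 most alike, *Gm13251* had 2 genes of the window, *Zfp46*, *Rps19-ps3* and *Masp2* had 1 each and the other 5 had none. *Pik3cd* was among the 20 most like *Zfp46*, and *Masp2* and *Gm13251* were each among the 20 most like the other. The libraries are shared and their groups set most of these correlations, which are a description.

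Promoters were searched for letters bound by factors of the cytokine pathways, since 4 of the 9 genes rose together. The window was the 250 bases before the start, from RefSeq on GRCm38.p6, both strands were read, and 32851 promoters were searched in all. The interferon motif (GAAA, any 2 bases, GAAA), a core of the element bound by IRF factors, was in 2.98% of all promoters. The STAT motif (TTC, any 3 bases, GAA) was in 7.02% and the NF-κB motif (GGGA, any 4 bases, CC) in 17.6%, and the motifs do not contain each other. Promoters were found for 7 of the 9 genes, 13 in all, and not for *Gm13251* and *Rps19-ps3*. The NF-κB motif was in the *Asap3* promoter, at 101 bases before the start, and in 1 of 3 for *Pik3cd*, at 244 and 86 bases, and 2 of 3 for *Fbxo44*, which was not called with cytokines. The STAT motif was in the *Masp2* promoter alone, at 53 bases before the start. None of the 3 was in the promoters of *Zfp46* (2), *Tmem51* (1) and *Alpl* (2), so that *Zfp46* and *Tmem51* rose with none of these letters in this window. The *Tnfrsf1b* promoter held the interferon and the STAT motif. The promoters of the 2 genes that rose with cytokines and hold a match are shown, with the match in capitals (*Asap3*, chr4:136206115-136206364, plus strand, and *Pik3cd*, chr4:149676090-149676339, minus strand):
*Asap3*: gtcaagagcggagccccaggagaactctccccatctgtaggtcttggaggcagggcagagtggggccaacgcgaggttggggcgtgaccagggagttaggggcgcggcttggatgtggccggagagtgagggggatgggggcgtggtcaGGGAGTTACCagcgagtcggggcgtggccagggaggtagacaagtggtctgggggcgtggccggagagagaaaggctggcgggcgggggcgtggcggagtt
*Pik3cd*: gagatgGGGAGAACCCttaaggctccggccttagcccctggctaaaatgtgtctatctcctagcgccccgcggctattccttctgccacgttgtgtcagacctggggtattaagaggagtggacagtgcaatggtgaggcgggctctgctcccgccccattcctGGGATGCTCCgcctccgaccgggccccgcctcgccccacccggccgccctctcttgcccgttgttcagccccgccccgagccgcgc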

How the data were processed

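RNA of 12 OPC libraries was sequenced as pairs of 100-base reads. Per the methods, trimming was by Trim Galore, alignment to GRCm38 and counting per gene by STAR on an Ensembl annotation. The authors turned the counts of read pairs into FPKM with edgeR and deposited them in 2 tables of 45792 entries, 1 per condition, with 6 libraries each. The methods name a BGISeq-500 instrument and the labels Illumina protocols. Symbols used more than once (99) were left out. The FPKM values were whole multiples of 1 read pair for 26636 of 26636 genes above 0 in at least 2 libraries (within 0.02 read pairs, or 0.1 for 12 abundant genes), which gave the read pairs printed. Their divisors are not gene lengths as annotated, so that levels were not compared between genes, apart from the fixed FPKM limits. Those limits fall at unlike numbers of read pairs in different genes. *Gm13251* met the limit of 1 FPKM with at most 74 read pairs a library, and *Gm13157* missed it with up to 158.

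Groups came from the labels. Genes averaging 0.1 FPKM or more were fitted with limma 3.58.1 in R 4.3.3 on log2(FPKM + 0.5), with all 4 groups in 1 model and Benjamini-Hochberg adjustment over 18081 genes. This fit took all libraries as independent, although NS and St libraries of the same genotype and number deviated together (below). Its p-values do not account for that pairing. For a call, 3 limits had to be met: 0.05 for the adjusted p, 0.585 for the size of the log2 difference and 1 FPKM for the mean. Fold changes printed are ratios of mean FPKM, while log2 differences include the pseudocount of 0.5 and understate the change of low genes. The script was tested on simulated data in which all libraries were drawn independently. That test therefore says nothing about the effect of the pairing. Nothing in the sources used here says that libraries of a group came from separate litters, and p-values measure the spread between these libraries.

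The 9 genes and the gene lists were chosen with earlier results of these data known. Named besides them were the genes called in the window, the nearest and outermost genes, those that share sequence with or overlap a member, and the related genes that were called. For 1 further gene of the window no result is given. Positions are those of GRCm38 (42585 symbols with 1 position). Within a genotype, NS and St libraries of the same number deviated together from their group means (correlation over 13554 genes of 0.338 to 0.649 in 6 pairs, against -0.455 to 0.088 in 12 pairs of other numbers), so the numbers were taken to mark a culture. Across genotypes they did not (-0.0553 to 0.204 in 4 pairs). The 95% intervals of the interaction come from the limma fit and rest on the spread between libraries. Limits at low counts cover counting error only. Alternatives were another pseudocount, filter, scaling, fit or block, voom on the read pairs, and leaving out each library.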

Additional observations from a re-analysis of the deposited data

How the results depend on the processing

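With only the 6 libraries compared in each fit, 1 of the 9 genes was called in NS (*Gm13251*) and 2 in St (*Gm13251* and *Masp2*), 3 genes of the window were called in each, and *Tnfrsf1b* in St, at 1.28, missed the adjusted threshold. With the adjusted p alone as the call, 27 genes of the window were called in NS and 21 in St. Leaving out 1 library at a time gave 4 to 6 of the 9 genes called in NS, 3 to 8 in St, 4 in each response and 0 for the interaction. It gave 6 to 12 genes of the window in NS and 4 to 10 in St, and *Tnfrsf1b* differences of 2.23 to 2.53 in NS and 1.07 to 1.48 in St, where the call was lost without WT St replicate 3, WT St replicate 4 or TNFR2-/- St replicate 5. Small differences changed sign. With median-of-ratios scaling the *Alpl* interaction was 0.0438, the *Gm13251* response in TNFR2-/- 0.0661 and that of *Rps19-ps3* 0.0094. With quantile normalization the *Alpl* interaction was 0.0567, the WT response -0.0231 for *Rps19-ps3* and -0.0398 for *Masp2*, and the *Pik3cd* difference in NS -0.007. Without 1 library the interaction ranged from -0.15 to 0.10 for *Alpl*, -0.0865 to 0.36 for *Asap3*, -0.22 to 0.0166 for *Fbxo44* and -0.13 to 0.21 for *Gm13251*. The WT response ranged from -0.12 to 0.0715 for *Gm13251*, -0.13 to 0.16 for *Masp2* and -0.0131 to 0.10 for *Rps19-ps3*, and the TNFR2-/- response from -0.17 to 0.17 for *Gm13251* and -0.15 to 0.032 for *Rps19-ps3*. The cause was not tested. Over all alternatives the interaction was 0.69 to 0.89 for *Pik3cd*, 0.41 to 0.57 for *Zfp46* and -0.78 to -0.46 for *Tmem51*, with an adjusted p of 0.0968 to 0.832.

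With the replicate number as a replicate block, *Fbxo44* was also called in NS (-0.65, adjusted p = 0.0112 by limma), and the 8 calls in St, the 4 in each response and the 0 for the interaction were the same. With the block within genotype, which gives no value for a difference between genotypes, the interaction of *Pik3cd*, *Zfp46* and *Tmem51* had an adjusted p of 0.0968 each. *Asap3* lost its call in St with a pseudocount of 0.1, with no filter and with no trend, and gained one in NS with a pseudocount of 0.1, with the filter at 1 FPKM and without TNFR2-/- NS replicate 4 or TNFR2-/- St replicate 5. *Alpl* lost its call in St with no filter, without WT NS replicate 4 and on leaving out any single St library. In NS it lost the call with quantile normalization and without WT NS replicate 3 or 4 or TNFR2-/- NS replicate 2 or 5. *Rps19-ps3* lost its call in St with a pseudocount of 1 and without WT St replicate 3 or 4. *Zfp46* lost its call in St without WT St replicate 3 or 4 or TNFR2-/- St replicate 2. *Fbxo44* lost its call in St without WT St replicate 2, 3 or 4 or TNFR2-/- St replicate 2 or 5. It gained one in NS with quantile normalization, with the adjusted p alone and without TNFR2-/- NS replicate 5. *Gm13251* had 3 to 9 read pairs in a WT library and kept both genotype calls under every alternative run. From a pseudocount of 1 to voom, its difference ran from 1.201 to 3.012 in NS and that of *Tnfrsf1b* from 1.748 to 4.026. Over all alternatives the *Tnfrsf1b* response in WT was 0.788 to 2.482 and its interaction -2.354 to -0.698.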
